A study of Mus musculus with 4 samples.

Results

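The 46 genes described here encode the intracellular machinery that carries signals from Toll-like receptors (TLRs), the tumour necrosis factor (TNF) receptors and the NOD sensors to NF-kB and the MAP kinases. They were taken by name as a list of adaptors, kinases, ubiquitin ligases and negative regulators. Each of the 46 symbols matched 1 locus of the deposited gene table by its Ensembl identifier. All 46 loci were among the 12648 that the authors' Cuffdiff test had covered, of 53139 in the table. By role they were divided into 10 adaptors and sensors, 16 kinases with their partner proteins, 11 TRAF proteins and ubiquitin ligases, and 9 brakes.

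The cells were macrophages derived from mouse MCA fibrosarcoma tumours (line label 9609 parent, genotype label WT) and treated in culture with exosomes, the small vesicles that cells release. Of the 4 samples, 2 received MEK1-hi exosomes and 2 received MEK1-low exosomes, the latter also labelled GFP. MEK1 is the kinase that phosphorylates ERK. The MEK1 content and the GFP difference cannot be told apart as sources of an effect, none of the 4 samples was untreated, and the cells that made the exosomes, the dose and the time of treatment are not given in the sources used here. Each level below is the authors' group value in FPKM (fragments per kilobase of transcript, scaled to library size), 1 value for each group. No value per sample and no spread between samples accompanies it, the depth of each sample is unknown, and every test of a gene is the authors' own. Whether samples of 1 group were separate cultures or animals is not stated in the labels, so those p-values may speak for technical variation.

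As background, most TLRs recruit MYD88, which TLR2 and TLR4 reach through TIRAP, and the IRAK kinases then pass the signal to the ubiquitin ligase TRAF6. TLR3 and internalised TLR4 use TRIF, which reaches TBK1 and IKK epsilon through TRAF3, while TNF receptors assemble TRADD, RIPK1, TRAF2 and the cIAP ligases. Ubiquitin chains made by these ligases and by the LUBAC complex activate the kinase TAK1 and the IKK complex, which releases NF-kB from its inhibitors. Several NF-kB target genes encode brakes on the same route.

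Macrophage markers were abundant in both groups, with Cd68 at 1728 and 1755 FPKM and C1qa at 1771 and 1892 FPKM with MEK1-low and MEK1-hi exosomes. Of the 10 macrophage markers listed, 0 were called in either direction by Cuffdiff at q under 0.05, and at an unadjusted p under 0.05 there were 2 higher and 0 lower. Values were higher in 8 of the 10 and lower in 2, Csf1r at 855 and 672 FPKM and Adgre1 at 387 and 318 FPKM. Of 8 neutrophil markers, S100a9, Ly6g, Mpo and Elane had a listed value of 0 with either exosome, and 3 were tested. Of these, S100a8 stood at 35.5 and 22.6 FPKM (p = 0.00405, q = 0.118 by the authors' deposited table). Csf3r stood at 37.8 and 30.8 FPKM and Mmp8 at 179 and 184 FPKM, so that at an unadjusted p under 0.05 there were 1 lower and 0 higher. The summed level of the neutrophil list was 253 and 238 FPKM. The sums were 5.75 and 4.55 FPKM for fibroblast and sarcoma markers, 1.62 and 1.20 FPKM for endothelial markers, and 0.781 and 0.441 FPKM for dendritic cell markers. For T and NK cell markers the sum was 6.94 and 4.87 FPKM, of which Cd4 alone made up 6.52 and 4.52 FPKM. Cd3e, Cd3d, Cd8a, Trac and Ncr1 were each at 0.210 FPKM or less in both groups. The part of any other cells in the results below was not tested. In bulk RNA, fewer cells of a type and less RNA per cell cannot be told apart.

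Of the 46 signalling genes, 3 passed the test, and each was lower with MEK1-hi exosomes: Traf1, an adaptor of TNF receptors, and Irak3 and Tnip1, which restrain TLR signalling. By the authors' deposited table, 3 of 46 fell and 0 rose at q under 0.05, a share of 6.52%. Over all 12648 loci tested the share called was 2.44%, made up of 1.69% lower (214 loci) and 0.751% higher (95 loci). These shares are also the background for the counts by role, class and related list below. At an unadjusted p under 0.05, the 8 lower members were Traf1, Irak3, Tnip1, Malt1, Traf3, Bcl10, Birc3 and Ikbke, and 0 were higher. That is 17.4% beside a background of 5.12% lower, and 3.53% higher, as the authors' deposited table has it. Lower values, whether called or not, were listed for 34 of the 46 (73.9%) beside 49.8% of all tested loci. With both groups scaled to the same upper quartile they were 29 of 46 (63.0%) beside 42.8% of tested loci above 0 in both groups. The median log2 fold change (MEK1-hi over MEK1-low) was -0.10 over the 46 members and 0.00 over the 11777 loci tested at 1 FPKM or more. On the log2 scale, 16 members (34.8%) were lower by 0.25 or more and 1 (2.17%), Nod1, was higher by as much. Over the loci tested at 1 FPKM or more these shares were 15.8% and 14.2%. Within 0.25 of 0 lay 29 members (63.0%) beside 69.9% of those loci. No member had a log2 fold change above the 95th percentile of the loci tested at 1 FPKM or more (0.50), and 5 lay below the 5th (-0.59). These members were Traf1, Irak3, Birc3, Malt1 and Tnip1. Among the 12606 tested loci above 0 in both groups, Malt1 and Tnip1 ranked at 5.37% and 5.86% from the lowest, outside the lowest 5%.

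**Figure D1:**
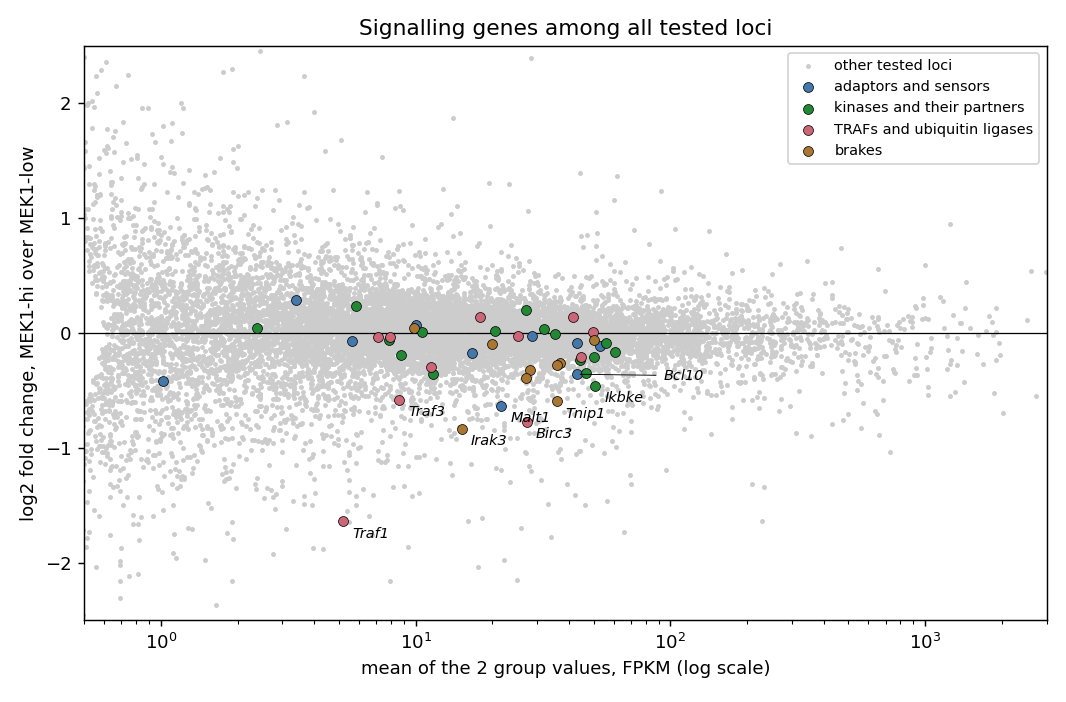
Log2 fold change (MEK1-hi over MEK1-low) against the mean of both group values in FPKM (log scale), for all tested loci (grey) and the 46 signalling genes, coloured by role. Names mark the 8 members whose unadjusted p is under 0.05 by the authors' deposited table, all on the lower side. Loci beyond the axes are not drawn.

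Traf1 encodes the TRAF family member that lacks the RING domain of a ubiquitin ligase and binds TRAF2 and the cIAP proteins. It lies on chromosome 2 from 34941750 to 34961772, minus strand (positions here are on build mm10, counted from 1, from GENCODE M21), with 7 merged exons. Its level was 7.87 FPKM under MEK1-low exosomes and 2.53 FPKM under MEK1-hi exosomes, 3.11-fold lower, a log2 fold change of -1.64 (p = 5e-05, q = 0.00349 by the authors' deposited table). This p is the smallest deposited and is shared by 181 loci, so it and its q set no order among them. Among the 12606 tested loci with a value above 0 in both groups, the log2 fold change of Traf1 ranked 90th from the lowest. With MEK1-low exosomes Traf1 was 40th of the 46 members by level, and with MEK1-hi exosomes 44th.

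Irak3 encodes IRAK-M, a member of the IRAK family with little or no kinase activity that restrains MYD88 signalling in macrophages. Its gene is on chromosome 10, from 120141648 to 120202130, minus strand, with 14 merged exons. The level was 19.5 FPKM under MEK1-low exosomes and 10.9 FPKM under MEK1-hi exosomes, 1.78-fold lower, a log2 fold change of -0.83 (p = 0.00065, q = 0.0288 by the authors' deposited table). Of its 3676 merged exon bases, 192 lie opposite exons of Tmbim4, which stood at 83.2 and 69.6 FPKM (q = 0.991 by the authors' deposited table). The libraries were made with a stranded kit, but the strand setting of the counting is not given, so reads of that stretch could come from either gene. The part of Tmbim4 in the fall of Irak3 was not tested.

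Tnip1 encodes ABIN1, a ubiquitin-binding partner of the TNFAIP3 enzyme and a brake on NF-kB. The gene occupies chromosome 11 from 54910785 to 54962917, minus strand, with 20 merged exons. It stood at 43.1 FPKM under MEK1-low exosomes and 28.6 FPKM under MEK1-hi exosomes, 1.51-fold lower, a log2 fold change of -0.59 (p = 0.00025, q = 0.0135 by the authors' deposited table). Neither Traf1 nor Tnip1 shares exon bases with another annotated gene. At a stricter q under 0.01, Traf1 alone of the 46 was still called.

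The promoters of these genes are shown because the members that fell belong to a route that ends on NF-kB, whose binding motif can be searched for in them. The letters are the 250 bases before the RefSeq start, read 5′ to 3′ on the strand of the gene (RefSeq, GRCm38.p6), and capitals mark matches to the NF-kB consensus motif on either strand. The windows are chr2:34961773-34962022 for Traf1, chr10:120202131-120202380 for Irak3 and chr11:54962941-54963190 for Tnip1, all on the minus strand.
Traf1: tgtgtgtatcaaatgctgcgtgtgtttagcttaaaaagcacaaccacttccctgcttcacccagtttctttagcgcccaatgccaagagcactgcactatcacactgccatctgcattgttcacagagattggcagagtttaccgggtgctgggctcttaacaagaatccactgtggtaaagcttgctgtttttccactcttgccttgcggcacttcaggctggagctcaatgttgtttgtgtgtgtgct
Irak3: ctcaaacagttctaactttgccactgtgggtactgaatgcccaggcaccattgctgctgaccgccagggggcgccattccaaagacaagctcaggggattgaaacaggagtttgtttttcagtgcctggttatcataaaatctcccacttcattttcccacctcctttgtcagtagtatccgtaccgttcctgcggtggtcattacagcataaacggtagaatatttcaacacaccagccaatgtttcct
Tnip1: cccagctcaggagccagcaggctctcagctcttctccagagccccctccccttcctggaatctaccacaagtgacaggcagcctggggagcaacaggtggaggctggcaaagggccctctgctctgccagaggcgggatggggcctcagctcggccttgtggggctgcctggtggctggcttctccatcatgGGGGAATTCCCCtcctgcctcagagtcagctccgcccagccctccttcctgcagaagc
Tnip1 held 4 overlapping matches within its run of capitals, between 58 and 47 bases before the start, on both strands. The Traf1 window and both RefSeq windows of Irak3, of which the one at the start of the GENCODE gene is printed, held no match in these letters. Of the 46 members, 38 had a RefSeq window, and 8 of those 38 (21.1%) held a match beside 10.3% of the 9221 genes of tested loci and 8.24% of all 27018 genes with a window. A match is a description of the letters and not a measured binding site.

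The 10-base matches of members on both sides of the test are given next so that they can be compared, as they read on the strand of each gene. Tnfaip3 also held a second match, GGGACACCCC, farther from the start.
Tnip1: GGGAATTCCC
Tnip3: GGGAAATCCC
Tnfaip3: GGAAATCCCC
Traf3: GGGGATTTCC
Map3k7: GGAAATTCCC
Cyld: GGAAAGTCCC
Bcl10: GGGAGATCCC
Irak1: GGGACGCCCC
Matches were found in genes with and without a call. Map3k7, which encodes TAK1, stood at 10.6 FPKM in both groups and Cyld at 9.70 and 10.02 FPKM, whereas Traf1, with no match in this window, had the lowest log2 fold change of the 46.

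Among the 10 adaptors and sensors, 0 were called in either direction by Cuffdiff at q under 0.05, and 2 were lower and 0 higher at an unadjusted p under 0.05. Their median log2 fold change was -0.10. Ticam2, which encodes the TLR4 adaptor TRAM, is joined with Tmed7 in 1 locus, so that their reads cannot be told apart. That locus stood at 55.1 and 51.0 FPKM, a log2 fold change of -0.11 (p = 0.514, q = 0.999 by the authors' deposited table). Myd88, the adaptor of most TLRs and of the interleukin 1 receptor, stood at 44.4 FPKM under MEK1-low exosomes and 41.9 FPKM under MEK1-hi exosomes, with a log2 fold change of -0.09 (p = 0.740, q = 0.999 by the authors' deposited table). Tirap, which bridges TLR2 and TLR4 to MYD88, stood at 5.75 and 5.47 FPKM. Ticam1, which encodes TRIF, stood at 9.78 and 10.2 FPKM. Tradd, the adaptor of TNF receptor 1, stood at 17.6 and 15.6 FPKM. The adaptors next to the receptors thus had log2 fold changes between -0.17 and 0.07, with that of Ticam2 taken from its joined locus.

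CARD9, BCL10 and MALT1 form the complex that links C-type lectin receptors to NF-kB. Bcl10 stood at 48.2 and 37.6 FPKM, a log2 fold change of -0.36 (p = 0.0182, q = 0.322 by the authors' deposited table). Malt1, the paracaspase of the complex, stood at 26.4 and 17.0 FPKM, a log2 fold change of -0.63 (p = 0.00665, q = 0.168 by the authors' deposited table). Card9 stood at 28.9 and 28.5 FPKM, so the level of Malt1 was 0.914 of that of Card9 under MEK1-low exosomes and 0.598 of it under MEK1-hi exosomes. The bacterial peptidoglycan sensors were low: Nod1 stood at 3.06 and 3.73 FPKM and Nod2 at 1.16 and 0.872 FPKM (q = 0.971 and 0.871 by the authors' deposited table).

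**Figure D2:**
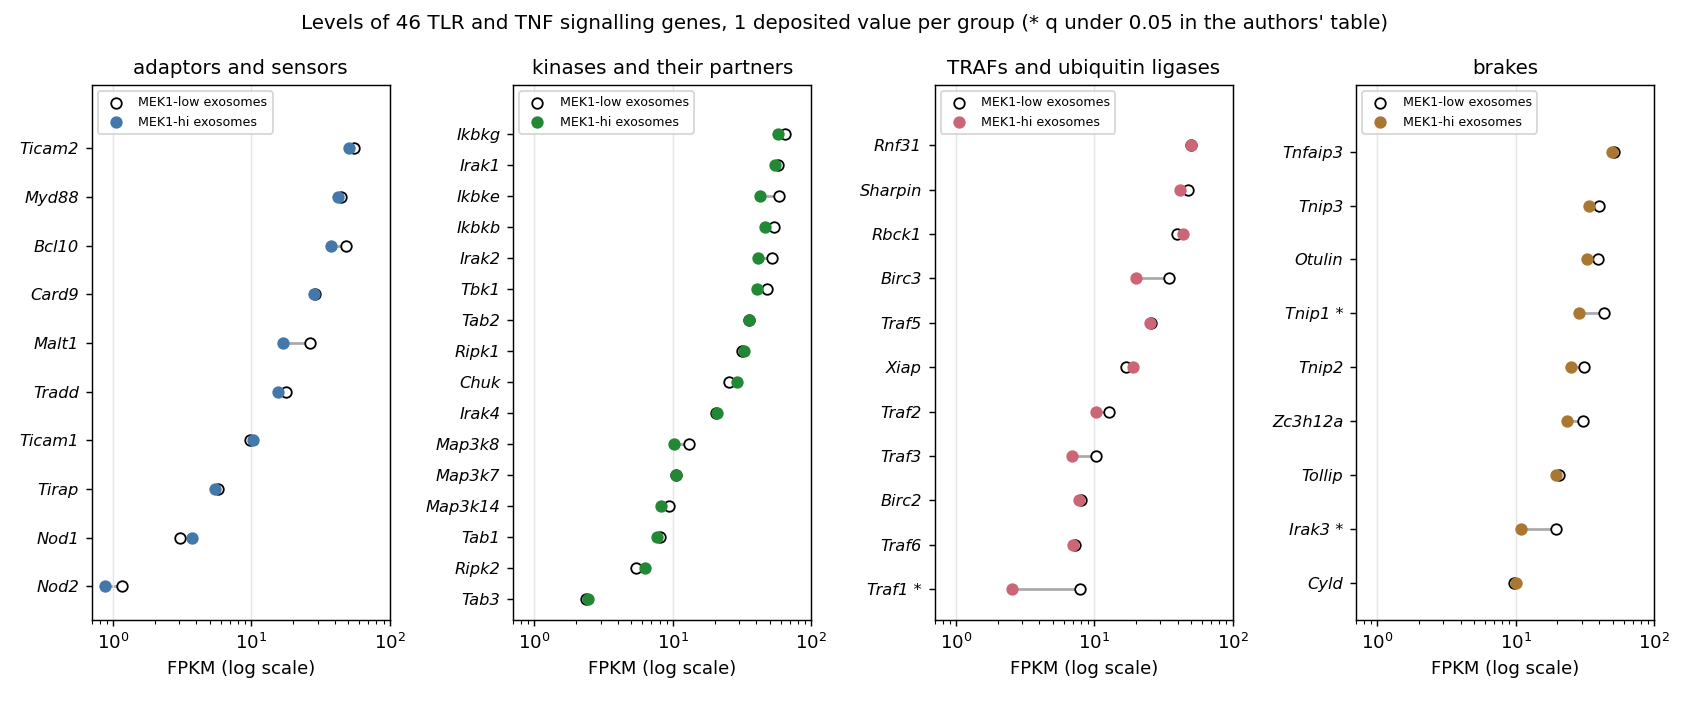
Level of each of the 46 genes in FPKM (log scale) with MEK1-low exosomes (open circles) and MEK1-hi exosomes (filled circles), 1 deposited group value each, by role. Asterisks mark the 3 called genes, Traf1, Tnip1 and Irak3. The levels run from 0.872 to 64.1 FPKM.

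Of the 16 kinases and partners, 0 were called in either direction by Cuffdiff at q under 0.05, and 1 was lower and 0 higher at an unadjusted p under 0.05. Their median log2 fold change was -0.08, with values from -0.46 to 0.24. Ikbkg, which encodes NEMO, the scaffold of the IKK complex, was first of the 46 in both groups. It stood at 64.1 FPKM under MEK1-low exosomes and 57.1 FPKM under MEK1-hi exosomes, which is -0.17 on the log2 scale (p = 0.570, q = 0.999 by the authors' deposited table). Of its 8110 merged exon bases, 418 lie opposite exons of G6pdx, whose part in this level was not tested. The kinase genes of the complex, Ikbkb and Chuk, had levels of 53.6 and 46.4 FPKM and of 25.2 and 29.0 FPKM. Their log2 fold changes were of opposite sign, -0.21 and 0.20, and neither passed the test (q = 0.999 for each by the authors' deposited table).

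Ikbke and Tbk1, the kinase genes of the interferon branch, had lower values without a call. Ikbke, which encodes IKK epsilon, was second by level with MEK1-low exosomes at 58.8 FPKM and eighth with MEK1-hi exosomes at 42.7 FPKM, a log2 fold change of -0.46 (p = 0.0264, q = 0.408 by the authors' deposited table). Its relative Tbk1 stood at 47.7 and 40.5 FPKM (p = 0.225, q = 0.992 by the authors' deposited table). TAK1 and its partners had log2 fold changes between -0.06 and 0.05. Map3k7 had one of 0.01, and its partner genes Tab1, Tab2 and Tab3, whose proteins hold TAK1 to ubiquitin chains or activate it, stood at 8.01 and 7.66, 35.3 and 35.2, and 2.34 and 2.42 FPKM.

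The IRAK family was spread in its values. Irak1, joined with the microRNA genes Mir718 and Mir5132 that lie within it, stood at 57.8 and 54.4 FPKM, a log2 fold change of -0.09 (p = 0.677, q = 0.999 by the authors' deposited table), and Irak4, the kinase nearest to MYD88, at 20.4 and 20.7 FPKM. Irak2, which sustains late TLR signalling in mouse macrophages, stood at 52.2 and 41.2 FPKM, a log2 fold change of -0.34 (p = 0.126, q = 0.854 by the authors' deposited table). Irak3 and Irak4 were at similar levels with MEK1-low exosomes, a ratio of 0.956, and the ratio was 0.528 with MEK1-hi exosomes. Like the other ratios between members given here, it was chosen after the values were seen and has no error. Of the 5021 merged exon bases of Irak4, 395 lie opposite exons of Twf1, whose part in this ratio was not tested.

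Map3k8 encodes TPL2, the kinase that links TLR and TNF signals to MEK1 and ERK. It stood at 13.1 and 10.3 FPKM, a log2 fold change of -0.36 (p = 0.0531, q = 0.592 by the authors' deposited table). Map3k14, which encodes the non-canonical pathway kinase NIK and is joined with 1700028N14Rik, stood at 9.37 and 8.19 FPKM. Ripk1, the kinase of the TNF receptor complex, joined with the pseudogene Gm17084, stood at 31.6 and 32.5 FPKM, and Ripk2, which acts below the NOD sensors, at 5.38 and 6.34 FPKM. None of Map3k14, Ripk1 and Ripk2 had a p under 0.05 by the authors' deposited table.

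Of the 11 TRAF proteins and ubiquitin ligases, 1 fell and 0 rose by the authors' deposited table, and 3 were lower and 0 higher at an unadjusted p under 0.05. The median log2 fold change was -0.04. All 5 TRAF genes had lower values, from -1.64 for Traf1 to -0.02 for Traf5 on the log2 scale, but Traf5 and Traf6 had higher ones when scaled to the same upper quartile. Traf3, which restrains NIK and carries TRIF signals, stood at 10.3 and 6.91 FPKM, a log2 fold change of -0.58 (p = 0.0150, q = 0.289 by the authors' deposited table). Traf2, the ligase partner at TNF receptors, stood at 12.7 and 10.3 FPKM (p = 0.0930, q = 0.765 by the authors' deposited table). Traf6, the ligase of the MYD88 route, stood at 7.20 and 7.04 FPKM, and Traf5, joined with Mir3473c, at 25.5 and 25.1 FPKM. The level of Traf1 was 0.620 of that of Traf2 under MEK1-low exosomes and 0.245 of it under MEK1-hi exosomes.

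Birc2 and Birc3, which encode cIAP1 and cIAP2, are neighbours on chromosome 9, minus strand, 11634 bases apart. Birc3 (7848699 to 7873186) stood at 34.4 and 20.1 FPKM, a log2 fold change of -0.77 (p = 0.0209, q = 0.348 by the authors' deposited table). Birc2 (7818227 to 7837064) stood at 8.00 and 7.80 FPKM, a log2 fold change of -0.04 (p = 0.846, q = 0.999 by the authors' deposited table). Birc3 was therefore 4.30 times Birc2 with MEK1-low and 2.58 times with MEK1-hi exosomes. Whether the changes of the 2 neighbours differ was not tested. Xiap, the third inhibitor of apoptosis protein of the list, stood at 17.1 and 18.9 FPKM.

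LUBAC, the complex that makes linear ubiquitin chains, had none of its 3 subunit genes called by Cuffdiff, nor any at an unadjusted p under 0.05. Its catalytic subunit gene Rnf31, joined with Irf9 in 1 locus so that their reads cannot be told apart, stood at 49.6 and 49.8 FPKM, a log2 fold change of 0.01 (p = 0.974, q = 0.999 by the authors' deposited table). Sharpin stood at 47.6 and 41.2 FPKM, a log2 fold change of -0.21 (p = 0.358, q = 0.999 by the authors' deposited table), and Rbck1, which encodes HOIL1, at 39.6 and 43.8 FPKM, a log2 fold change of 0.14 (p = 0.442, q = 0.999 by the authors' deposited table).

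The 9 brakes had the lowest median of the 4 roles, a log2 fold change of -0.28, with lower values in 8 and a higher value in Cyld alone. Irak3 and Tnip1 fell and 0 rose at q under 0.05, and the counts at an unadjusted p under 0.05 were also 2 and 0 by the authors' deposited table. Whether this median differs from that of other roles was not tested. Tnfaip3, which encodes the ubiquitin-editing partner of the TNIP proteins, was not called and stood at 51.4 and 49.4 FPKM, a log2 fold change of -0.06 (p = 0.807, q = 0.999 by the authors' deposited table). The level of Tnip1 was thus 0.839 of that of Tnfaip3 under MEK1-low exosomes and 0.579 of it under MEK1-hi exosomes.

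The other TNIP genes did not pass the test. Tnip3 stood at 40.1 and 33.6 FPKM, a log2 fold change of -0.26 (p = 0.156, q = 0.911 by the authors' deposited table), and Tnip2 at 31.3 and 25.0 FPKM, a log2 fold change of -0.32 (p = 0.105, q = 0.808 by the authors' deposited table). Zc3h12a, which encodes the endonuclease Regnase-1 that degrades cytokine mRNAs, stood at 30.7 and 23.4 FPKM (p = 0.0545, q = 0.600 by the authors' deposited table). Otulin, the deubiquitinase of linear chains, stood at 39.4 and 32.5 FPKM, a log2 fold change of -0.28 (p = 0.270, q = 0.999 by the authors' deposited table). The deubiquitinase gene Cyld had a log2 fold change of 0.05, and Tollip, which binds IRAK1, of -0.09.

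Of the 46 members, 12 were listed from background as NF-kB-inducible: Traf1, Birc3, Tnfaip3, Tnip1, Tnip3, Zc3h12a, Ripk2, Irak2, Irak3, Map3k8, Ikbke and Nod2. Of these 12, the authors' deposited table has 3 that fell (25.0%) and 0 that rose, beside 1.69% and 0.751% of all tested loci. These are the same 3 genes that were called among all 46. By the same deposited test, 5 of the 12 had an unadjusted p under 0.05 on the lower side, beside 5.12% of tested loci. Of the other 34, 0 were called in either direction by Cuffdiff, and 3 were lower and 0 higher at an unadjusted p under 0.05. Lower values were listed for 11 of the 12 and for 23 of the 34, and for 11 and 18 when scaled to the same upper quartile. Median log2 fold changes were -0.40 and -0.07. The exception among the 12 was Ripk2, with a log2 fold change of 0.24, and Tnfaip3 was next to it at -0.06. The difference between the classes was not tested, and the 12 genes were listed with earlier results of these data known. Some of the other 34 may be NF-kB-inducible too, so the contrast of medians depends on the list.

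**Figure D3:**
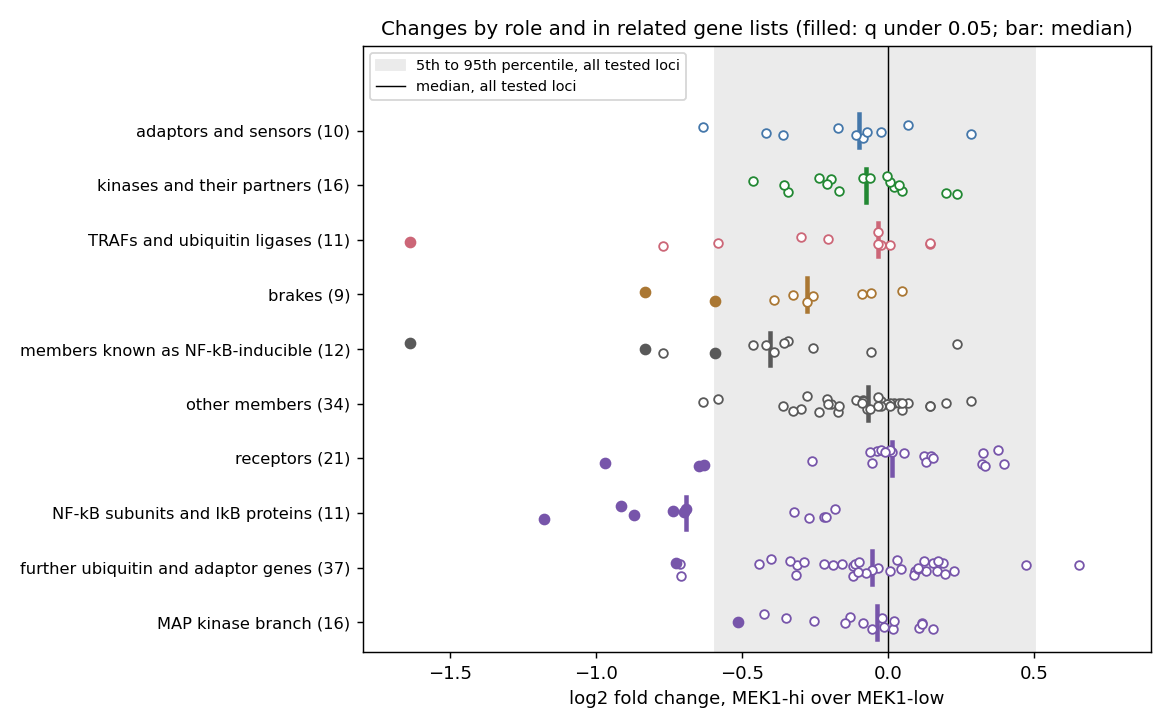
Log2 fold change (MEK1-hi over MEK1-low) of each member by role and by class, and of tested genes at 1 FPKM or more in 4 related lists, with the number of genes in parentheses. Filled points passed q under 0.05, and vertical bars are medians. The grey band runs from the 5th to the 95th percentile of all loci tested at 1 FPKM or more (-0.59 to 0.50). The median was -0.28 for the brakes, -0.40 for the 12 members listed as NF-kB-inducible and -0.07 for the other 34. Of the genes, 5 are both brakes and listed as NF-kB-inducible, and the spreads of the groups overlap.

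The genes at both ends of the route are given beside the members, each with its own values. Of 11 genes of NF-kB subunits and IkB proteins, 6 fell and 0 rose by the authors' deposited table, and all 11 had lower values, with a median log2 fold change of -0.69. The called genes were Nfkbie, Relb, Nfkb2, Nfkbia, Bcl3 and Nfkbiz, with log2 fold changes from -1.18 to -0.69. Nfkbia, which encodes IkB alpha, fell from 149 to 89.7 FPKM (q = 0.00349 by the authors' deposited table). Nfkb1, the precursor of the p50 subunit, stood at 55.2 and 44.1 FPKM (q = 0.437 by the authors' deposited table), and Rela at 36.6 and 31.4 FPKM.

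Of 27 receptor genes, 21 were tested, 3 fell and 0 rose by the authors' deposited table. Tlr2, the receptor for bacterial lipoproteins, fell from 65.5 to 33.4 FPKM, and Tnfrsf1b, TNF receptor 2, from 360 to 232 FPKM (q = 0.00349 for each by the authors' deposited table). The third was the co-receptor Cd14 with a log2 fold change of -0.65. Of the 21, 9 had lower and 12 had higher values, and at an unadjusted p under 0.05 there were 3 lower and 4 higher. The median of the list was 0.01. The 4 higher at that p were Ly86 (136 and 179 FPKM), Cd180 (125 and 157 FPKM), Tlr4 (13.8 and 17.2 FPKM) and Tnfrsf11a (30.9 and 40.2 FPKM). Their p-values were 0.00665, 0.0258, 0.0401 and 0.0424, with q of 0.168, 0.402, 0.511 and 0.525 by the authors' deposited table. Tnfrsf1a, TNF receptor 1, stood at 104 and 100.1 FPKM, and Unc93b1, the chaperone of endosomal TLRs, at 404 and 390 FPKM.

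Of 40 further genes for ubiquitin handling, adaptors and proximal regulators, 37 were tested, 1 fell and 0 rose by the authors' deposited table. The gene that fell was Zc3h12c, a relative of Zc3h12a in the Regnase family, from 9.05 to 5.47 FPKM, a log2 fold change of -0.73 (p = 5e-05, q = 0.00349 by the authors' deposited table). At an unadjusted p under 0.05, 4 were lower and 1 higher, and the median log2 fold change was -0.06. Ptpn6, which encodes the phosphatase SHP-1, stood at 313 and 252 FPKM (p = 0.0338, q = 0.468 by the authors' deposited table), and the locus of Ube2v1, a partner of the enzyme that makes K63-linked chains with TRAF6, joined with Gm20431 and Tmem189, at 147 and 136 FPKM.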

How the data were processed

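RNA was sequenced from 2 macrophage samples treated with MEK1-hi and 2 treated with MEK1-low exosomes. Per the labels' protocols, stranded mRNA libraries were made from 750 ng of RNA and read as paired ends of 100 bp. Tools named in the submitters' processing notes, without settings, are Cuffdiff, Cufflinks, TopHat and FastQC 0.73, with build mm10. The single table used holds 1 FPKM value per group as deposited by the authors, with the test statistic (a score), p-value and q-value that the authors deposited. GFP exo was matched to MEK1-low through the treatment label.

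Fold changes were computed from the group FPKM (Python 3.11.15, pandas 2.3.3), because error text stood in 1555 cells of the deposited log2 column. Elsewhere both agreed within 0.000212. Benjamini-Hochberg adjustment of the p-values over tested loci gave the deposited q-values within 5.19e-07. A gene was called where the q-value deposited by the authors was under 0.05. Medians used loci at 1 FPKM or more in either group. Of 55082 identifiers, 54824 (99.5%) had a symbol. Of the 46 members, 6 lie in joined loci, whose value covers all genes of the locus, and 10 share exon bases with a gene on the opposite strand. For 6 of these 10 (Myd88, Tirap, Irak4, Ikbkg, Ripk1 and Irak3) such a gene is protein-coding, and its part in their levels was not tested. Counting and adjustment were tested on simulated data.

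All 46 members could be named. Called members, members with an unadjusted p under 0.05 and the 3 of highest mean in each role were given in full. From related lists, called genes and the 2 of highest mean were named, and further ones were chosen after their values were seen. Members and lists were chosen with earlier results of these data known. The alternatives were other q, p, statistic, fold and FPKM thresholds, pseudocounts, scalings, and joined loci left out.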

Additional observations from a re-analysis of the deposited data

How the results depend on the processing

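No paired analysis was possible because the table holds 1 value per group, and for the same reason no sample could be left out. The count of 3 lower and 0 higher members was the same at q under 0.10. None of the 3 was lost when a further condition was added to q under 0.05. These conditions were an absolute test statistic of at least 2, 1.5-fold or more, 5 FPKM or more, and no joined locus. Such conditions can only remove calls, so 0 higher was fixed in advance. At q under 0.01 the count was 1 lower, Traf1, with 155 loci lower and 59 higher over the whole table, against 214 and 95 at q under 0.05. Irak3 and Tnip1 were the 2 that lost their call. At an unadjusted p under 0.05 it was 8 lower, with 648 lower and 447 higher over the whole table. The members' median log2 fold change was -0.17 without the 6 in joined loci, against -0.10 with them. It was -0.06 with group values scaled to the same upper quartile, and between -0.11 and -0.09 under the other 6 alternatives. Centring subtracted 0.00 from the log2 values, too little to test their signs. Matching the upper quartile subtracted -0.04, and members with lower values then numbered 29 in place of 34, since Card9, Tab2, Traf5, Traf6 and Birc2 turned to higher values (none was called). The count by upper quartile was added after seeing the data. FPKM keeps no counts, so what depth limits is unknown.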

Other observations

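The MAP kinase branch, which TAK1 and TPL2 also feed, was described by a list of 20 genes, of which 18 were tested. Mapkapk2, which encodes the kinase MK2 that acts below p38 and stabilises cytokine mRNAs, fell from 151 to 106 FPKM, a log2 fold change of -0.52 (p = 0.0006, q = 0.0273 by the authors' deposited table), and 0 rose. At an unadjusted p under 0.05 there were 3 lower and 0 higher. The transcription factor genes Fos and Junb had levels of 211 and 157 FPKM and of 176 and 138 FPKM (q = 0.221 and 0.296 by the authors' deposited table). Their relative Jun stood at 47.2 and 47.9 FPKM (q = 0.999 by the authors' deposited table). The p38 alpha gene Mapk14 stood at 40.3 and 36.3 FPKM, and the JNK genes Mapk8 and Mapk9 at 7.23 and 6.07 FPKM and 24.9 and 24.0 FPKM. The median of the 16 genes tested at 1 FPKM or more was -0.04 on the log2 scale.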
